A study of Mus musculus with 20 samples.

Results

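Peak lists of hematopoietic stem cells (HSC) were examined at 48 genes of the DNA replication machinery, chosen by gene symbol from 21627 protein-coding genes on chromosomes 1 to 19 and X. The genes were sorted by role: 9 of origin licensing, 14 of the replicative helicase and its activation, 9 of the polymerases, 8 of the sliding clamp, its loader and lagging-strand maturation, and 8 of other fork factors and nucleotide supply. All cells came from adult mice given poly(I:C), an interferon inducer, and were sorted by flow cytometry. KO mice carried Mx1-Cre+/-;mTORflox/flox, that is 2 floxed alleles of the gene for the growth kinase mTOR and an interferon-inducible Cre. KO MycHet mice carried Mx1-Cre+/-;mTORflox/flox;c-Myc+/flox, so that Cre could also remove 1 allele of the transcription factor gene c-Myc. WT mice carried Mx1-Cre-/-;mTORflox/flox, so they kept the floxed alleles, received the same inducer and had no Cre. The Mx1 promoter responds to interferon in blood cells and in other tissues, so deletion is not restricted to HSC. MYC, H3K27ac and H3K4me3 were each profiled by ChIP-seq in 1 KO and 1 WT library, and open chromatin by ATAC-seq in 2 KO MycHet, 2 KO and 2 WT libraries of 50000 cells each. The labels do not say whether the numbered ATAC-seq libraries came from separate mice, so their spread may be technical.

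Before a cell copies its DNA, the origin recognition complex (ORC), Cdc6 and Cdt1 load the ring-shaped MCM helicase, made of Mcm2 to Mcm7, onto origins. The kinase Cdc7 with its activator Dbf4 then lets Cdc45 and the GINS complex join the ring and start unwinding, and polymerases, the clamp PCNA and single-strand binding proteins follow at the fork. Most HSC in adult marrow rest outside the cell cycle, and many genes of this machinery are known targets of E2F factors and, in part, of MYC. H3K4me3 marks active promoters, H3K27ac marks active promoters and enhancers, and ATAC-seq peaks mark accessible DNA.

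The deposited lists give each peak a position and a score from the authors' peak caller, at least 50 in every list, on a scale that the sources used here do not state. A gene was counted as having a peak when a peak reached within 1 kb of either annotated end, and as KO only when this was so in KO and not in WT. The KO lists were longer than the WT lists, with 20036 against 10078 H3K27ac peaks, 16019 against 15089 H3K4me3 peaks and 22086 against 8774 MYC peaks. By ATAC-seq there were 47214 and 53722 peaks in KO MycHet, 19174 and 72149 in KO, and 17303 and 66531 in WT. Read depth is unknown, and with 1 ChIP-seq library per genotype there is no test between genotypes. The lower end of Mtor, the targeted gene, carried a peak in 0 of 2 KO MycHet, 0 of 5 KO and 5 of 5 WT libraries, in accord with the labels. Of 16 HSC and progenitor marker genes, 13 and 12 had an ATAC-seq peak in KO MycHet, 6 and 15 in KO, and 10 and 12 in WT. Marker genes of other cell types were open too: at least 1 ATAC-seq library had a peak at 5 of 7 erythroid, 6 of 8 myeloid, 4 of 6 B cell, 4 of 7 T and NK cell, 4 of 5 megakaryocyte and 5 of 6 stromal and endothelial genes. Per library, these lists had 1 to 5 open genes each in KO MycHet, 0 to 2 in the first and 3 to 6 in the second KO library, and 0 to 2 in the first and 3 to 5 in the second WT library. Slc4a1, Alas2, Ly6g, Cebpe, Pax5, Ms4a1, Cd3e, Cd8a, Ncr1, Ppbp and Cdh5 had none in any, and the part of other cells in the ATAC-seq results was not tested. In pooled cells, a mark in more of the cells and a stronger mark per cell cannot be told apart.

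MYC peaks lay at more replication genes in KO than in WT, and in KO alone at every gene of the MCM ring. In KO, 24 of the 48 genes had a MYC peak (50.0%), against 10 in WT (20.8%). Over all coding genes the share was also higher in KO, 22.3% against 10.3% in WT. Of the 48 genes, 15 were KO only (31.2%), beside 14.4% of all coding genes, and 1 was WT only, beside 2.35% of all coding genes. Another 9 had a MYC peak in both genotypes and 23 in neither. Nearly all replication genes carry H3K4me3, and so do most genes with MYC, since 4361 of the 4830 coding genes with a MYC peak in KO had H3K4me3 in both genotypes. Among the 44 replication genes with H3K4me3 in both genotypes, 13 were KO only for MYC (29.5%, exact 95% interval 16.8 to 45.2%). This is near the 24.8% of the 11106 coding genes with that mark in both, so the total count is not read as a result about replication genes as a group. The interval covers counting error among genes of 1 library and is too wide to show that the shares are alike. Mcm2 and Pcna, KO only for MYC and WT only for H3K4me3, are not among the 44. For WT only, the count was 1 of 44, against 3.71% of the 11106. The KO-only count was 8 when both MYC lists were held to the same number of peaks (16.7% of the 48 genes and 5.66% of all coding genes), with Mcm2, Mcm4 and Mcm7 of the MCM ring still KO only. It was also 8 when peaks at an end of another coding gene were left out (16.7%, against 10.1% of all coding genes), and 5 with scores of at least 100 (10.4%, against 6.17%). With a window of 2.5 kb it was 17 (35.4%, against 17.7%). For these alternatives the share among genes with H3K4me3 in both genotypes was not counted.

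Of the helicase genes, 8 of 14 were KO only for MYC (57.1%), and these include all 6 subunits of the MCM ring. The KO-only share was 14.4% over all coding genes and 24.8% over those with H3K4me3 in both genotypes. The other roles gave 3 of 8 clamp genes, 2 of 8 fork genes, 1 of 9 licensing genes and 1 of 9 polymerase genes. Counting genes with any MYC peak in KO, the share was 78.6% for the helicase (11 of 14, exact 95% interval 49.2 to 95.3%). For licensing it was 11.1% (1 of 9, 0.281 to 48.2%). The share was 22.3% over all coding genes and 39.3% over those with H3K4me3 in both genotypes. The intervals cover counting error among genes of 1 library and do not compare roles. No test between roles was made. The licensing count also depends on the annotation of Orc1 and Orc4, which had a MYC peak in KO at their RefSeq starts, given further on. It depends on the window too, since Cdc6 was KO only for MYC with a window of 2.5 kb.

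**Figure D1:**
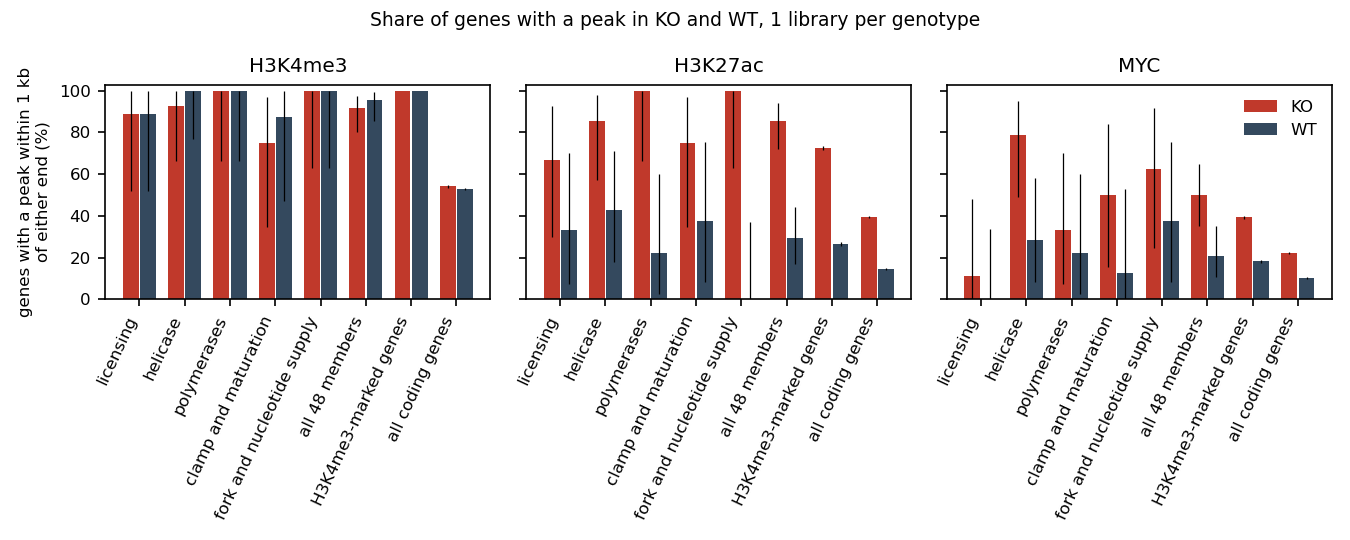
Percent of genes with a peak within 1 kb of either end for H3K4me3, H3K27ac and MYC, in KO (red) and WT (dark blue), by role and for the reference sets, 1 library per genotype; black lines are exact 95% confidence intervals, which cover counting error only. MYC peaks were present at 11 of 14 helicase genes in KO and 4 in WT, and the set with H3K4me3 in both genotypes is at 100.0% for H3K4me3 by its definition.

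All 6 genes of the MCM ring had a MYC peak in KO and none in WT. Mcm7 had the highest-scoring of them, 172 in KO, at percentile 92.0 of the scores in that list. Mcm4 followed with 149 (percentile 88.9), Mcm2 with 85.5 (62.5), Mcm6 with 81.6 (59.1), Mcm5 with 68.4 (43.5) and Mcm3 with 56.3 (19.5). The ring thus spans strong and weak peaks of the KO list, and Mcm3 lies near the lowest score that the list holds. The MYC peaks were 463 to 1647 bp wide, and at the 5 genes whose start is annotated the peak centre lay within 65 bp of it: 55 bp downstream at Mcm2, 56 at Mcm3 and 65 at Mcm7, and 47 bp upstream at Mcm5 and 29 at Mcm6. At Mcm4 the peak (chr16:15637371-15638381) also lay at an end of Prkdc, the gene of a DNA repair kinase that starts beside it, and at Mcm7 (chr5:138170995-138172641) it also lay at an end of Ap4m1. At these shared promoters a peak cannot be given to one gene.

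**Figure D2:**
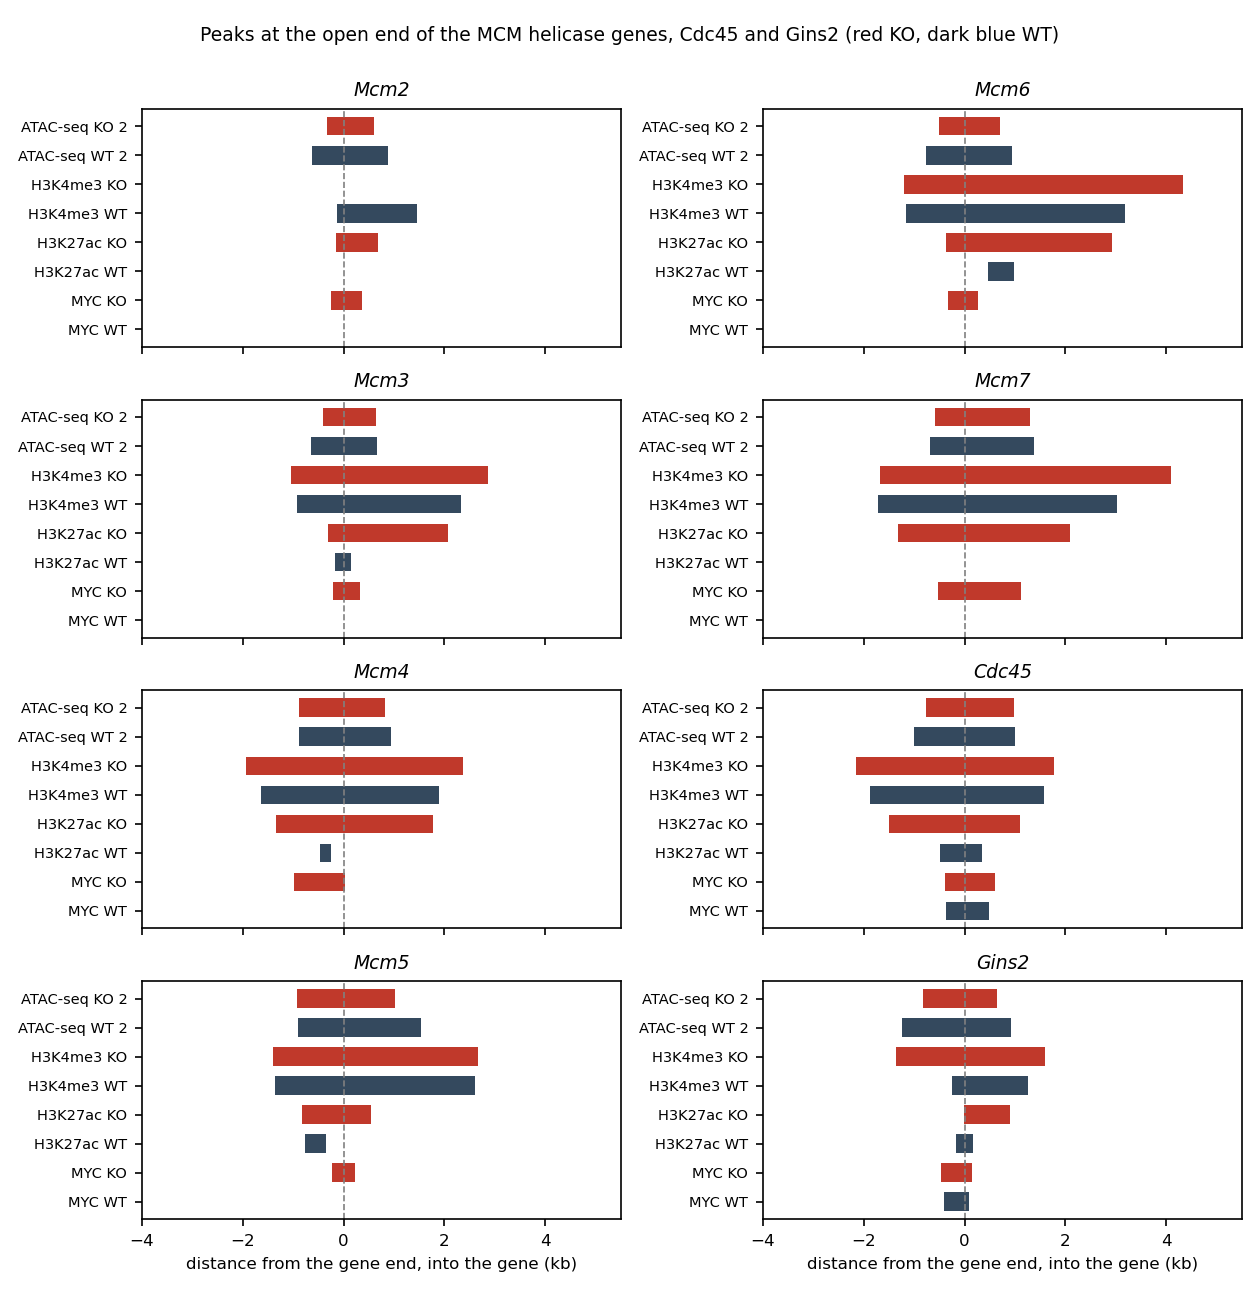
Extent of the highest-scoring peak of each list around the gene end that is open in ATAC-seq, for the 6 genes of the MCM ring, Cdc45 and Gins2; the horizontal axis is the distance in kb from that gene end, positive into the gene, with KO bars in red above WT bars in dark blue. MYC bars appear in KO alone at all 6 MCM genes and in both genotypes at Cdc45 and Gins2, and H3K27ac bars are longer in KO at every gene that has one in both.

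The promoter letters of 5 of these KO-only genes are shown because they hold the E2F letters discussed below, while none holds the E-box that MYC recognises. The sequences are from RefSeq, build GRCm38.p6, on the gene's strand and 5′ to 3′, with E2F letters in capitals. Mcm7, Mcm6 and Mcm5 are given for the 180 bases before the annotated start, and Mcm3 and Pold1 for 30 bases just after it. Their positions are chr5:138171884-138172063 (minus strand) for Mcm7, chr1:128359706-128359885 (minus) for Mcm6, chr8:75109329-75109508 (plus) for Mcm5, chr1:20820266-20820295 (minus) for Mcm3 and chr7:44548766-44548795 (minus) for Pold1.
Mcm7: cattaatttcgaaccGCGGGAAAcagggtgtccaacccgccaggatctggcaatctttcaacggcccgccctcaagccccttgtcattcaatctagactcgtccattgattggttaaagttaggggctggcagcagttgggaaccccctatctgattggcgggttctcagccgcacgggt
Mcm6: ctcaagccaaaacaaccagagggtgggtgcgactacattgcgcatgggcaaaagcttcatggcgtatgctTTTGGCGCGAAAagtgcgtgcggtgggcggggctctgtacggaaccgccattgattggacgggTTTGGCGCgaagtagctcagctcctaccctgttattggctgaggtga
Mcm5: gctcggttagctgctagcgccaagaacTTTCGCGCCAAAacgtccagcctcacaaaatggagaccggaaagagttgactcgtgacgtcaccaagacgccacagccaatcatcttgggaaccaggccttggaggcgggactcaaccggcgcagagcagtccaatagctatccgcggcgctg
Mcm3: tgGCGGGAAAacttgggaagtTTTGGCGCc
Pold1: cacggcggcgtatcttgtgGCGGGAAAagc

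The other marks at the MCM genes were present in both genotypes more often than MYC. Mcm2 had H3K27ac at 54.3 in KO and none in WT, and no H3K4me3 in KO, against 176 in WT. Mcm3 had H3K27ac at 256 in KO and 51.1 in WT, with H3K4me3 at 761 and 740.5. Mcm4 had H3K27ac at 517 in KO and 60.4 in WT, and H3K4me3 at 599.7 and 532. Of the 6 genes, Mcm2 had the lowest H3K27ac score in KO and the lowest H3K4me3 score in WT. Mcm5 had H3K27ac at 274 in KO and 61.4 in WT, and H3K4me3 at 705 and 509.5. Mcm6 had H3K27ac at 238 in KO and 65.95 in WT, while its H3K4me3 scored 486 in KO and 589 in WT. Mcm7 had H3K27ac at 352 in KO and none in WT, and H3K4me3 at 473 in KO and 611 in WT. H3K27ac was thus in both genotypes at 4 of the 6 genes, all 4 with the narrower peak in WT.

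All 6 MCM genes were open in every ATAC-seq library. At Mcm2, ATAC-seq peaks scored 178 and 239 in KO MycHet, 62.3 and 372 in KO, and 74.7 and 173 in WT. At Mcm3, ATAC-seq peaks scored 641 and 748 in KO MycHet, 212 and 1068 in KO, and 281 and 1217 in WT. The second KO and WT libraries, with the longest lists, gave the higher score of their pair at both genes. At Mcm4, ATAC-seq peaks scored 1191 and 1246 in KO MycHet, 318 and 1572 in KO, and 289 and 1729 in WT. At Mcm5, ATAC-seq peaks scored 673 and 743 in KO MycHet, 219.6 and 804 in KO, and 221 and 855 in WT. The KO and WT ranges overlap at each of them. At Mcm6, ATAC-seq peaks scored 654 and 749 in KO MycHet, 135 and 957 in KO, and 181 and 935 in WT. At Mcm7, ATAC-seq peaks scored 791 and 946 in KO MycHet, 116 and 1156 in KO, and 145 and 1288 in WT. At all 6 genes, the 2 KO libraries and the 2 WT libraries thus lie farther apart than the KO mean lies from the WT mean.

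Mcm10 and Dbf4, which act on the ring, were both KO only for MYC. Mcm10, which stabilises the unwinding helicase, was KO only for MYC at 58.3 and for H3K27ac at 309.6, with H3K4me3 at 561 in KO and 443 in WT. Dbf4 was KO only for MYC at 53.1, but that peak lay 881 bp upstream of the start, outside H3K27ac, and also at an end of Slc25a40. Dbf4 had H3K27ac in KO alone at 169.5, and H3K4me3 at 645 in KO and 588 in WT. At Mcm10, ATAC-seq peaks scored 433 and 555 in KO MycHet, 74.2 and 823 in KO, and 212 and 788 in WT. At Dbf4, ATAC-seq peaks scored 973 and 878 in KO MycHet, 249.6 and 1188 in KO, and 274 and 1259.7 in WT. Neither gene separated the genotypes by ATAC-seq.

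Of Cdc45 and the GINS subunits, which complete the active helicase, Cdc45, Gins2 and Gins4 carried MYC in both genotypes, Gins1 in WT alone and Gins3 in neither. Cdc45 had the highest MYC score of all 48 genes in each list, 254 in KO and 231 in WT, at percentiles 96.9 and 97.2. Gins2 scored 80.5 in KO and 76.03 in WT, at percentiles 57.9 and 60.1. Gins4 scored 98.8 in KO and 128 in WT, at percentiles 71.6 and 87.8. None of the 3 ranked higher in the KO list than in the WT list. Gins4 had H3K27ac in KO alone at 171, the third highest such score of the helicase genes, and H3K4me3 at 532 in KO and 457 in WT. At Gins4, ATAC-seq peaks scored 944 and 1111 in KO MycHet, 314 and 1431 in KO, and 243 and 1290.2 in WT. Gins1 was the only WT-only gene for MYC, at 53.3 and 174 bp wide, the lowest MYC score in WT among the replication genes. Gins1 had H3K27ac in KO alone at 159.8 and H3K4me3 at 282 in KO and 271 in WT. At Gins1, ATAC-seq peaks scored 391 and 694 in KO MycHet, 185 and 776 in KO, and 174 and 581 in WT. Gins1 is thus the single gene of the set with MYC in WT alone and H3K27ac in KO alone. Gins3 and Cdc7 had no MYC or H3K27ac peak in either genotype and had H3K4me3 in both.

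Origin licensing genes had few MYC peaks by this window. Gmnn, the gene of geminin, which blocks relicensing by binding Cdt1, was KO only for MYC at 96.4 and for H3K27ac at 177. Its H3K4me3 scored 423 in KO and 385 in WT. At Gmnn, ATAC-seq peaks scored 821 and 959 in KO MycHet, 91.9 and 1254 in KO, and 193 and 1282 in WT. None of the 6 ORC genes, nor Cdc6 and Cdt1, which load the ring, had a MYC peak within 1 kb of an end in either genotype. For Orc1 and Orc4 this depends on the annotation: the outermost gene edge lies 3749 bp from the RefSeq promoter start of Orc1 and 2821 bp from that of Orc4. At its RefSeq start Orc1 had a MYC peak in KO alone at 120.1 (chr4:108578793-108579652), H3K27ac at 247 in KO and 107 in WT, and H3K4me3 at 629.8 in KO and 547.5 in WT. Orc4 had a MYC peak at its start in KO alone at 66.85 (chr2:48949036-48949579) and H3K27ac in KO alone at 103.7. Orc1 and Orc4 thus belong with the KO-only genes when the annotated start is used. By that window, 14 of 39 replication genes with an annotated start were KO only for MYC (35.9%), against 14.0% of the 17273 coding genes in the promoter table. The share among genes with H3K4me3 in both genotypes, the closer reference, was not counted for this window.

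H3K27ac at the licensing genes was in both genotypes at Orc3, Orc5 and Cdt1 and in KO alone at Orc2, Orc6 and Gmnn. Orc5 had the highest scores, 676 in KO and 112 in WT. Orc6 scored 202 in KO, with H3K4me3 at 336 in KO and 621 in WT. Orc2 scored 104 in KO, with H3K4me3 at 428 in KO and 429 in WT. Orc5 is thus one of the genes marked most strongly in both genotypes, and Orc6 one with a lower H3K4me3 score in KO than in WT. At Orc6, ATAC-seq peaks scored 665 and 724 in KO MycHet, 228 and 911 in KO, and 156 and 1060.5 in WT. At Orc2, ATAC-seq peaks scored 571 and 767 in KO MycHet, 130.4 and 726 in KO, and 146 and 1007 in WT. Both genes were open in every library. Cdc6 had H3K27ac in neither genotype and H3K4me3 at 495 in KO and 430.2 in WT.

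Among the 9 polymerase genes of the set, those with a MYC peak were the subunits of polymerase delta, which copies the lagging strand. Pold1, its catalytic subunit, was KO only at 75.85, with the peak centred 34 bp downstream of the start and also at an end of Nr1h2. Pold2 had MYC at 97.2 in KO and 59.9 in WT, and Pold3 at 96.4 in KO and 71.1 in WT. Pola1, Pola2, Prim1 and Prim2, which make the primers, and Pole and Pole2 of the leading-strand polymerase had no MYC peak in either genotype. This contrast rests on which subunits the set holds. Outside it, Pold4 of polymerase delta and Pole3 of polymerase epsilon had MYC in both genotypes, both named after their calls were seen, and Pole4 of epsilon had it in KO alone. H3K27ac was present at all 9 polymerase genes in KO and at Pola2 and Prim2 alone in WT, at scores of 50.4 and 51.5 that are close to the lowest in the list. Of all coding genes, 39.6% had the mark in KO and 14.6% in WT.

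Pold1 had H3K27ac in KO alone at 109 and H3K4me3 at 369 in KO and 376 in WT. At Pold1, ATAC-seq peaks scored 388 and 530.4 in KO MycHet, 175 and 763 in KO, and 79.1 and 611 in WT. The highest KO-only H3K27ac score of the role was that of Pold3, 376, with H3K4me3 at 630.4 in KO and 473 in WT. Both genes kept H3K4me3 and open chromatin in each genotype. At Pold3, ATAC-seq peaks scored 809.6 and 937 in KO MycHet, 101 and 1099 in KO, and 155 and 1157 in WT. Pola1 followed with H3K27ac at 187 in KO, H3K4me3 at 343 in KO and 446 in WT, and ATAC-seq scores of 378 and 486 in KO MycHet, 104 and 690.5 in KO, and 110.3 and 709 in WT. Pold2 had H3K27ac at 182 in KO, H3K4me3 at 454 in KO and 404 in WT, and ATAC-seq scores of 433 and 666 in KO MycHet, 168 and 843 in KO, and 153 and 790.1 in WT. Ranked within its list, H3K4me3 was higher in KO at Pold2 (percentile 73.6 in KO and 67.1 in WT) and Pold3 (92.8 and 77.6). It was lower in KO at Pola1 (58.3 and 73.4) and almost level at Pold1 (61.7 and 62.6), with 1 library per genotype.

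Pcna, the gene of the sliding clamp that holds polymerases on DNA, was KO only for MYC at 107 and WT only for H3K4me3, a pair of calls that it shares with Mcm2. The WT H3K4me3 peak scored 51.05, percentile 0.709 of its list, and was 8536 bp wide, spanning the whole gene. The open chromatin of Pcna was among the strongest of the set, with ATAC-seq scores of 1111 and 1458 in KO MycHet, 367 and 1709.7 in KO, and 254 and 1831 in WT, and H3K27ac was at 339 in KO and 149.8 in WT. Its H3K4me3 call thus rests on 1 weak and very wide peak beside strong peaks of other kinds. The MYC peak of Pcna (chr2:132251949-132253549) also lay at an end of Cds2.

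Among the genes that load the clamp or finish lagging-strand fragments, Rfc4 and Fen1 were KO only for MYC. Rfc4, a loader subunit, had MYC at 70.3 in KO, H3K27ac at 415 in KO and 94.97 in WT, and H3K4me3 at 591 in KO and 505 in WT. At Rfc4, ATAC-seq peaks scored 601 and 654 in KO MycHet, 67.6 and 758 in KO, and 75.97 and 1087 in WT. Fen1, the flap nuclease, had MYC at 179.5 in KO, the highest of the 15 KO-only genes. That Fen1 peak overlapped a WT MYC peak lying outside the window and also lay at an end of Tmem258, so it is KO only by position alone. Fen1 had H3K27ac at 794 in KO and 159.7 in WT and H3K4me3 at 1037 in KO and 710.2 in WT. At Fen1, ATAC-seq peaks scored 512 and 538 in KO MycHet, 136 and 523 in KO, and 111 and 819 in WT. Fen1 had the highest KO score of all 48 genes for both histone marks.

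The other clamp genes had less MYC. Rfc5 had MYC in both genotypes, at 111 in KO and 115 in WT, with H3K27ac in KO alone at 112. Rfc3 and Rfc2 had no MYC and had H3K27ac in KO alone, at 337 and 180.5. Lig1, the ligase that seals the fragments, had neither MYC nor H3K27ac within 1 kb of an end. With a window of 2.5 kb it was KO only for both. At Rfc3, H3K4me3 scored 662 in KO and 562 in WT, and ATAC-seq 580.4 and 564 in KO MycHet, 259 and 853 in KO, and 299 and 969.7 in WT. At Rfc2, H3K4me3 scored 564 in KO and 758 in WT, and ATAC-seq 177 and 253 in KO MycHet, 51.7 and 433 in KO, and 60.04 and 377 in WT. At Rfc5, H3K4me3 scored 576 in KO and 378 in WT, and ATAC-seq 385 and 481 in KO MycHet, 102 and 612 in KO, and 138 and 689 in WT. All 3 loader genes were open in every library, Rfc2 the least. Rfc1, the large loader subunit, had no peak of any list within the window, since its annotated edge lies 2978 bp from its RefSeq start. At that start it had H3K4me3 at 518 in KO and 477 in WT, H3K27ac at 121 in KO alone and no MYC peak.

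Fork factors carried H3K27ac at all 8 genes in KO and at none in WT. KO only for the mark were 25.8% of all coding genes and 46.7% of those with H3K4me3 in both genotypes. Without peaks at an end of another coding gene, Rpa1, Rpa3, Wdhd1 and Timeless lost the KO-only call. With equal numbers of peaks, Rpa1 and Rrm2 lost it. Rpa3, the small subunit of the single-strand binding protein RPA, was KO only for MYC at 98.1, at an end that it shares with Umad1. It had H3K27ac at 193 in KO, H3K4me3 at 433 in KO and 467 in WT, and the highest ATAC-seq scores of the set in 4 of 6 libraries, at 1259 and 1236 in KO MycHet, 469 and 1884 in KO, and 422 and 1717 in WT. Wdhd1, which tethers polymerase alpha to the helicase, was KO only for MYC at 129, but this peak lay at its lower end, 36148 bp from the annotated start, outside H3K4me3 and H3K27ac. The Wdhd1 peak is thus not a promoter peak of that gene. Wdhd1 had H3K27ac at 164.5 in KO, H3K4me3 at 545 in KO and 573 in WT, and ATAC-seq scores of 799 and 872 in KO MycHet, 131 and 968 in KO, and 115 and 1112 in WT.

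Rrm1, the large subunit of ribonucleotide reductase, which makes deoxynucleotides, had MYC at 97.6 in KO and 95.6 in WT. Rpa2 had MYC at 119 in KO and 151 in WT, and Timeless, a fork protection factor, at 50.2 in KO and 60.2 in WT. These 3 complete the 9 genes with MYC in both genotypes. By raw score 5 were higher in KO and 4 higher in WT, but the lists may not share a scale. Ranked within its own list, MYC was higher in KO only at Pold2 (percentile 70.6 in KO and 34.6 in WT) and Pold3 (70.2 and 54.0). The rest of the 9 ranked higher in WT. The Timeless peaks lay at an end that it shares with Mip and more than 5 kb from its RefSeq start, which itself lies 6003 bp from the gene edge, and no ChIP-seq peak was found at that start. The highest KO-only H3K27ac scores of the fork genes were 319 at Rrm1, 197 at Tipin and 193 at Rpa3. Rrm1 had H3K4me3 at 585 in KO and 689 in WT, and ATAC-seq scores of 554 and 469.6 in KO MycHet, 131 and 893 in KO, and 104 and 806 in WT. Tipin, the partner of Timeless, had H3K4me3 at 491 in KO and 395 in WT, and ATAC-seq scores of 255 and 337 in KO MycHet, 70.3 and 549 in KO, and a peak in the second WT library alone at 474. Rrm2, the small reductase subunit, and Rpa1 had H3K27ac in KO alone at 76.4 and 72.35, below the median of that list. Neither had MYC within 1 kb of an end, but Rrm2 was KO only for MYC with a window of 2.5 kb.

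**Figure D3:**
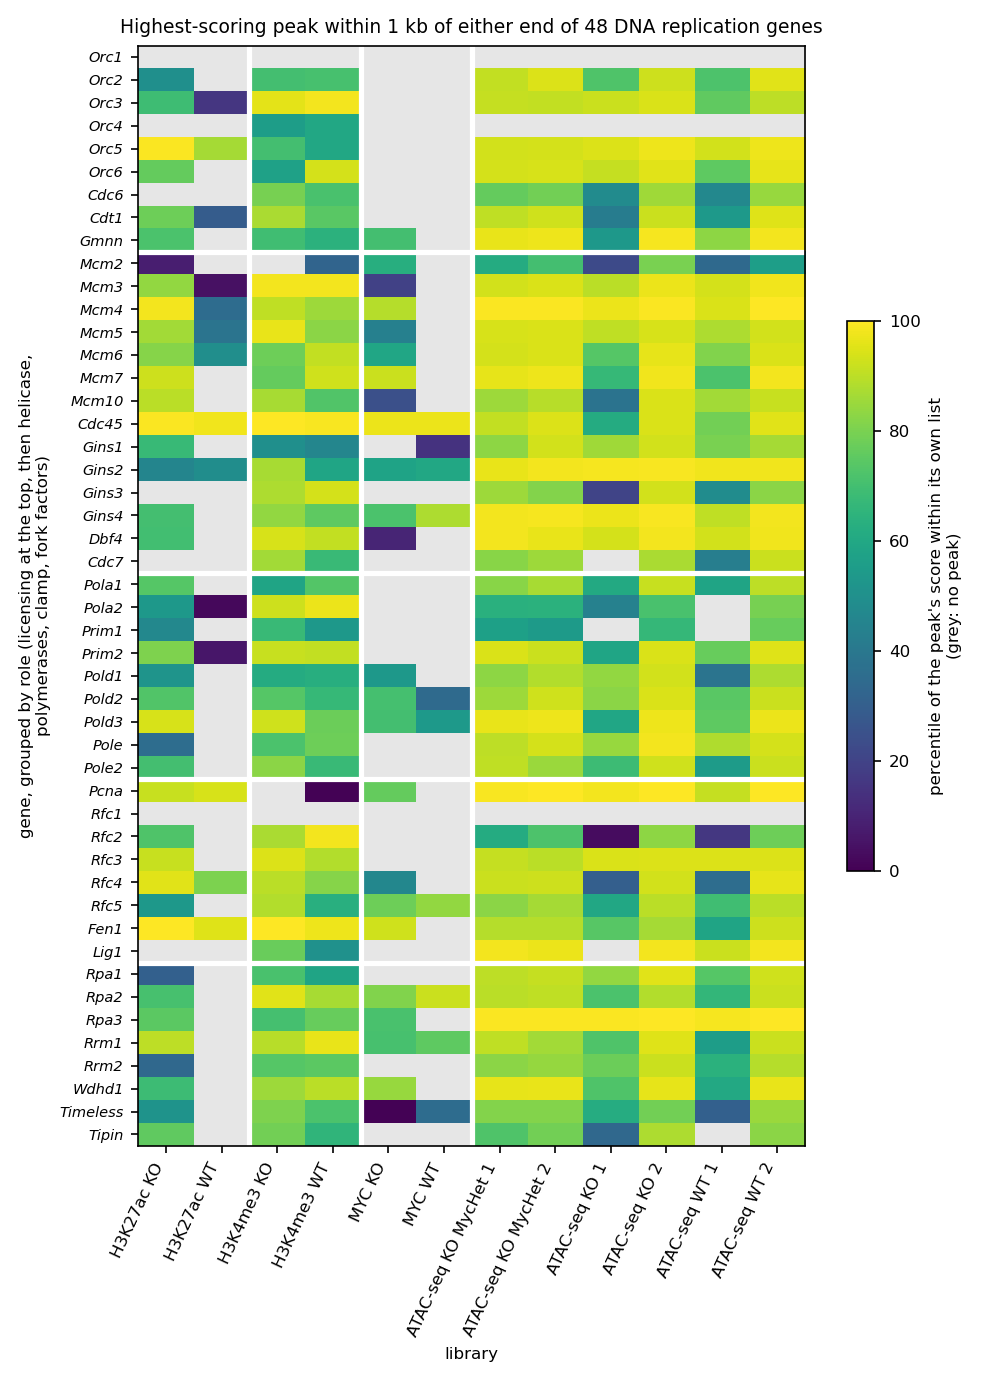
Percentile of the score of the highest-scoring peak at each of the 48 genes within its own list, by library, with KO MycHet and KO columns left of WT; grey means no peak within 1 kb of either gene end. The H3K27ac WT and MYC WT columns are mostly grey, with 14 and 10 genes coloured, the MYC KO column has 24 coloured, and 40 genes are coloured in all 6 ATAC-seq libraries.

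Taken over all roles, H3K27ac was the mark with the largest count of KO-only genes. It was present at 41 of 48 genes in KO (85.4%) and 14 in WT (29.2%), against 39.6% of all coding genes in KO and 14.6% in WT. KO only were 27 genes (56.2%), beside 25.8% of all coding genes, and none was WT only, beside 0.768%. Among the 44 genes with H3K4me3 in both genotypes, 26 were KO only (59.1%, exact 95% interval 43.2 to 73.7%). Of the 11106 coding genes with that mark in both, 46.7% were KO only, inside an interval too wide to show that the shares are alike. Here too the total is not read as a result about replication genes. Mcm2, KO only for H3K27ac, is not among the 44. Without peaks at an end of another coding gene, 17 genes were KO only (35.4%, against 18.2% of all coding genes, with the share of marked genes not counted). By role, KO only were 3 of 9 licensing, 6 of 14 helicase, 7 of 9 polymerase, 3 of 8 clamp and 8 of 8 fork genes. Of the other cell types' markers, H3K27ac was at 1 of 7 erythroid genes in KO and 0 in WT, 0 of 8 myeloid in each, 2 of 6 B cell in KO and 0 in WT, 1 of 7 T and NK cell in each, 2 of 5 megakaryocyte in KO and 0 in WT, and 2 of 6 stromal and endothelial in KO and 0 in WT. The HSC and progenitor list had 6 of 16 in KO and 1 in WT, and the part of cell makeup in the result was not tested.

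Where both genotypes had H3K27ac, the KO peak was the wider at all 14 genes, as at 99.9% of all coding genes. At the 14 genes the median width was 2714.5 bp in KO and 409.5 bp in WT, and the median ratio of the widths within a gene was 4.05. Over all coding genes with the mark in both, that ratio was 4.08, so the replication genes did not stand apart. H3K4me3 was more alike between genotypes, with a median width of 3668.5 bp in KO and 2915.5 bp in WT at the 44 genes and a median ratio of 1.23, against 1.22 over all coding genes. It was wider in KO at 43 of 44 genes, against 91.9% of all coding genes, and Lig1 was the exception, with 2871 bp in KO and 3086 bp in WT.

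**Figure D4:**
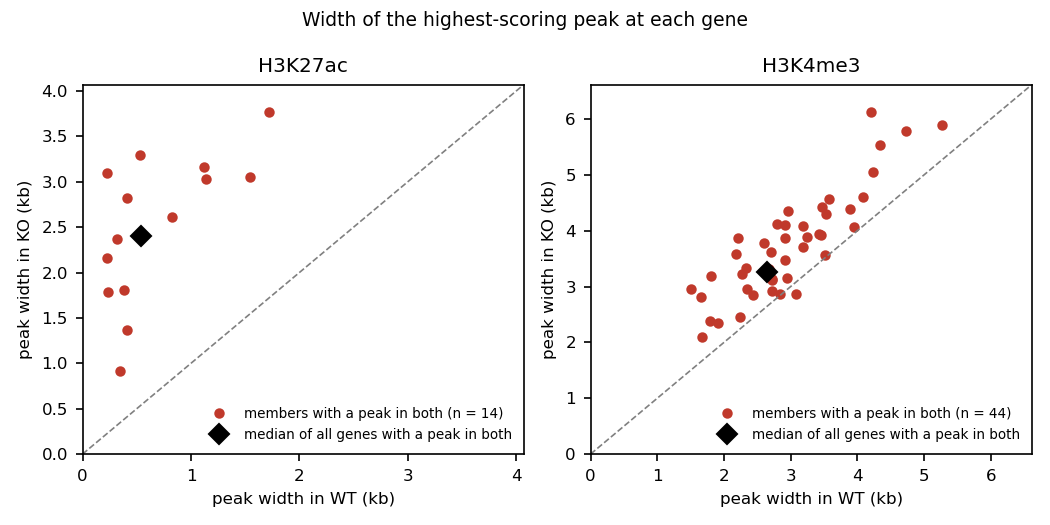
Width in kb of the highest-scoring peak in KO (vertical axis) against WT (horizontal axis) for H3K27ac (left) and H3K4me3 (right); red points are replication genes with a peak in both genotypes, black diamonds the medians over all coding genes with a peak in both, and the dashed line is equal width. All 14 H3K27ac points and 43 of 44 H3K4me3 points lie above the line, as do 99.9% and 91.9% of all coding genes. The KO over WT ratios of the replication genes ran from 1.98 to 13.7 for H3K27ac and from 0.93 to 1.97 for H3K4me3. Only their medians are near those of all coding genes.

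H3K4me3 itself was present at 44 genes in KO and 46 in WT. None was KO only, beside 2.95% of all coding genes, and 2 were WT only, beside 1.52%. These were Pcna, described above, and Mcm2. At Mcm2 the KO list had an H3K4me3 peak at 269, but it started 1459 bp outside the gene (chr6:88900239-88904161), and WT had a peak there as well at 273. The difference at Mcm2 is thus that the WT list holds another peak over the start itself (chr6:88897324-88898904). Orc1 and Rfc1 had H3K4me3 in neither genotype within the window and in both at their RefSeq starts.

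ATAC-seq peaks were present at 45 and 45 of the 48 genes in the KO MycHet libraries, 42 and 45 in KO and 42 and 45 in WT. Of all coding genes, 62.0 and 62.3% had a peak in KO MycHet, 44.6 and 65.7% in KO, and 44.7 and 66.1% in WT. The first KO and WT libraries, with the shortest lists, were thus lowest for both. The mean counts were 45.0 in KO MycHet, 43.5 in KO and 43.5 in WT, and 40 of the 48 genes were open in all 6 libraries. Over all coding genes the share open in all 6 is at most the 44.6% of the first KO library. An exact two-sided permutation test over libraries gave p = 1.0 for KO against WT (0.0 genes apart), KO MycHet against KO (1.5 genes higher) and KO MycHet against WT (1.5 genes higher). The smallest p that 2 against 2 libraries allow is 0.333, so no difference could have passed. Without the first KO library KO MycHet was 0.0 genes above KO, and without the first WT library 0.0 genes above WT, so the 1.5 genes rest on these 2 libraries. No KO MycHet library has so short a list. In none of the 3 pairs of genotypes did a gene have peaks in both libraries of the first and none in the second, or the reverse. Over all coding genes this was so for 0.0277% (both KO, neither WT), 0.0231% (both WT, neither KO), 0.412% (both KO MycHet, neither KO), 0.0416% (both KO, neither KO MycHet), 0.361% (both KO MycHet, neither WT) and 0.0694% (both WT, neither KO MycHet). Cdc7 and Lig1 lacked a peak in the first KO library, Pola2 and Tipin in the first WT library, and Prim1 in both of these. Orc1, Orc4 and Rfc1 had no ATAC-seq peak within the window and, at their RefSeq starts, one in every library.

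In KO, the MYC peaks of the replication genes overlapped both histone marks and ATAC-seq peaks more often than the MYC list as a whole, and in WT this was so for H3K4me3 and ATAC-seq but not for H3K27ac. Of the 24 in KO, 21 overlapped H3K4me3, 22 H3K27ac, and 23 and 24 the peaks of the KO ATAC-seq libraries, against 24.1%, 31.9%, 26.0% and 40.3% of all MYC peaks in that list. Of the 10 in WT, all overlapped H3K4me3 and both WT ATAC-seq libraries, and 2 overlapped H3K27ac, against 30.1%, 36.0%, 55.3% and 23.4% of the WT list. Peaks at gene ends were counted against peaks anywhere in the genome, so these shares describe gene ends as much as replication genes. The peak also lay at an end of another coding gene for 9 of 24 genes in KO and 2 of 10 in WT.

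The E-box CACGTG, the letters that MYC and its partner MAX bind, was in none of the searched promoter windows of genes with a MYC peak. In RefSeq windows from 250 bases before to 50 after the start, available for 39 of the 48 genes, it was found at 4 genes (10.3%). These were Pola2, Rfc1, Lig1 and Rpa1, none of which had a MYC peak within 1 kb of an end or of the start. Lig1 was KO only for MYC with a window of 2.5 kb. The E-box is compared here with other promoters. It was present in 8.0% of 17273 coding promoters and in 10.5% of the 9058 whose genes had H3K4me3 in both genotypes. Only the letters CACGTG were searched, in these fixed windows and not under the MYC peaks. Some peaks were centred outside the windows, as in KO at Dbf4 (881 bp upstream of the start) and Fen1 (602 bp downstream). The E2F letters TTTCCCGC, TTTGCCGC, TTTCGCGC or TTTGGCGC, on either strand and allowed to overlap, were in 14 of 39 promoters (35.9%), against 2.95% of all and 4.39% of the marked ones. They were in 5 of 13 promoters of KO-only MYC genes, shown above, in 1 of 7 with MYC in both genotypes, Pold3, and in 8 of 19 with no MYC peak, which include Orc1 (whose MYC peak lies at its start, outside the window), Orc3, Cdc6 and Cdt1. The CCAAT box, which the factor NF-Y binds, was in 22 of 39 (56.4%), against 39.4% of all promoters. Replication promoters thus held E2F letters whether or not the gene had a MYC peak at an end.

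**Figure D5:**
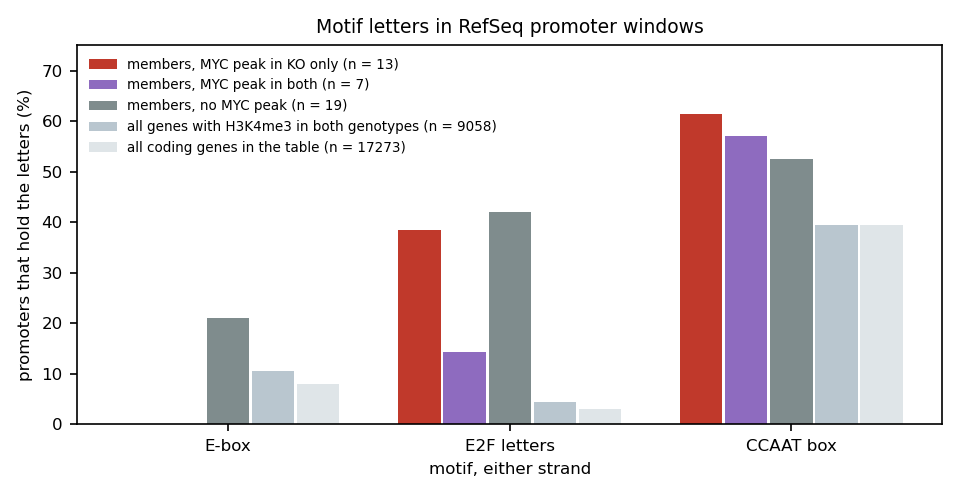
Percent of RefSeq promoter windows that hold each motif on either strand, for replication genes with a MYC peak in KO only, in both genotypes or in neither, and for 2 sets of coding genes. Genes were sorted by a MYC peak at either gene end, not in the promoter window. At Wdhd1 and Timeless that peak lay away from the start. Orc1 and Orc4, with a MYC peak at the start in KO, count as neither. The E-box was in 0 of 13 promoters of KO-only genes and 0 of 7 of genes with MYC in both. The E2F letters were in 14 of 39 replication promoters, against 2.95% of all coding promoters.

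A second list of 48 replication genes outside the core set, of repair polymerases, chromatin assembly factors, nucleotide enzymes and replication checkpoints, gave like counts. MYC was at 21 of them in KO and 9 in WT, with 15 KO only and 3 WT only, the same KO-only count as in the core set. KO only were thus 31.2%, beside 14.4% of all coding genes and 24.8% of those with H3K4me3 in both genotypes, and WT only 6.25%, beside 2.35 and 3.71%. Among the KO-only genes, Rad18, a ubiquitin ligase of DNA damage tolerance, scored 199.8 and Pole4, a small subunit of polymerase epsilon, scored 125. The WT-only genes were Ctc1 at 82.9, Rnaseh2a at 53.6 and Ssrp1 at 51.8. H3K27ac was at 39 in KO and 13 in WT, with 26 KO only (54.2%, beside 25.8% of all coding genes and 46.7% of the marked ones). H3K4me3 was at 46 in each genotype (95.8%), beside 54.3% of all coding genes in KO and 52.9% in WT. The counts of the core genes were thus near those of the second list.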

How the data were processed

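The members, gene lists, comparisons, alternatives and naming rule were chosen with earlier results of these data known. Of 20 samples, 12 had a peak list; 8 RNA-seq samples (4 per group) were not analysed here. The authors deposited 1 list per library with a position, a MACS-style peak name and a score, so peaks were called per library and not on pooled samples; the score was used only to describe, rank and filter peaks. Per the submitters' processing notes, the build was mm10 and the tool named for the peak lists was CASAVA; TopHat and Cufflinks are named for the RNA-seq samples only. For the peak lists, neither the aligner nor the peak caller's version, settings, input controls or read shifting for ATAC-seq is given in the sources used here. No list holds read counts, so depth is unknown, and list length may reflect depth or signal quality as well as marked regions.

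Gene ends came from a RefSeq table of GRCm38.p6, the assembly also called mm10, and peaks were converted to 1-based positions. A peak counted at a gene when it shared at least 1 bp with the window of 1 kb to each side of either end. Each gene was described by its highest-scoring peak. Promoter letters came from RefSeq windows of the same assembly; 9 members had no entry. Shares carry exact Clopper-Pearson 95% intervals, which cover counting error only. No set test was made. Scores in every library are given for members that are KO only or WT only for MYC or H3K4me3 and for up to 3 per role with the highest H3K27ac among KO only. Overlaps were tested on simulated peaks and checked against bedtools 2.31.1, with 0 genes differing over 12 lists; Python 3.11.15 and pandas 2.3.3 were used. Alternatives changed the window, the gene end, the score minimum, the number of peaks, the overlap rule and the ATAC-seq libraries used.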

Additional observations from a re-analysis of the deposited data

How the results depend on the processing

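Each count was recomputed with windows of 0.5 and 2.5 kb, at the annotated start, with scores of at least 100, with equal numbers of peaks per genotype, by peak centre, without overlap with the other genotype anywhere, and, added after seeing the data, with peaks at no other gene end. For MYC, KO-only genes numbered 15 and fell to 5 with scores of at least 100 and to 8 with peaks at no other gene end. They fell to 8 (16.7% of members against 5.66% of all genes) with equal numbers of peaks. With the 2.5 kb window they rose to 17 (35.4% of members against 17.7% of all genes). Cdc6, Lig1 and Rrm2 were then gained and Fen1 was lost. WT-only genes numbered 0 at the annotated start and 3 with equal numbers. With equal numbers, Mcm2, Mcm4 and Mcm7 kept the KO-only call and Mcm3, Mcm5 and Mcm6 lost it, since the lowest KO score then kept was 82.92. For H3K27ac, KO only numbered 17 with peaks at no other gene end, and WT only 1 by peak centre (Mcm6) and 1 with equal numbers (Gins2). For H3K4me3, WT only numbered 1 with the 2.5 kb window, 1 with scores of at least 100, 1 with peaks at no other gene end and 4 by peak centre. For ATAC-seq, 1 gene was open in both KO and neither WT, and 1 in both KO and neither KO MycHet, with peaks at no other gene end; 1 was open in both KO MycHet and neither KO at 0.5 kb, and 1 in both KO MycHet and neither WT at 0.5 kb and by peak centre. With equal numbers, KO MycHet minus WT was -0.5 genes, against 1.5. Leaving out 1 library gave differences of -1.5 to 1.5 (KO minus WT), 0.0 to 3.0 (KO MycHet minus KO) and 0.0 to 3.0 (KO MycHet minus WT), and 0 to 2 genes open in KO and not WT, 0 to 2 in WT and not KO, 0 to 3 in KO MycHet and not KO, and 0 to 3 in KO MycHet and not WT. Of 351 checks of single genes, 294 kept the call, 57 lost it and none took the opposite class. The causes were not tested beyond the construction of each alternative. No paired analysis was possible because the ChIP-seq targets had 1 library per genotype and the labels number only the second ATAC-seq library of a genotype and name no shared animal or day. The first KO and WT libraries have the shortest lists, and without them KO MycHet, KO and WT had 45 genes each in the second libraries. List length and unknown depth limit every KO-only count. Shares under the alternatives are over all coding genes, not over those with H3K4me3 in both genotypes.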

Other observations

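The 19 genes of the E2F, RB and MuvB regulators, which switch replication genes on in late G1 and off in resting cells, were examined in the same way. H3K27ac was at 14 of them in KO and 4 in WT, with 10 KO only (52.6%) and 0 WT only, beside 25.8% and 0.768% of all coding genes. Among coding genes with H3K4me3 in both genotypes, 46.7% were KO only for H3K27ac. MYC was at 6 in KO and 5 in WT, with 3 KO only (15.8%) and 2 WT only (10.5%). KO only for MYC were 14.4% of all coding genes and 24.8% of those with H3K4me3 in both genotypes. WT only were 2.35% and 3.71%. E2f1, an activating E2F, was KO only for MYC at 61.5, as were Lin54 at 55.97 and Rbl1 at 53.4, and Rb1, the retinoblastoma gene, was WT only at 79.3, as was Mybl2 at 62.4. H3K4me3 was at 17 in KO and 19 in WT, and Myb and Lin37 had it in WT alone (10.5%, beside 1.52% of all coding genes). With 1 library per genotype, none of these differences was tested.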
